A study of Mus musculus with 45 samples.

Results

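The diet by sidestream smoke interaction asks, gene by gene, whether the heart of a mouse on a high-fat diet answered sidestream cigarette smoke differently from the heart of a mouse on a regular diet. Its members were the arrays whose titles place them in RW-SC, RW-SS, DIO-SC or DIO-SS, which made 31 of the 45 arrays of the study. All were hearts of male C57BL/6 mice, 1 mouse per array. RW (regular weight) mice ate a diet with about 5 kcal% fat throughout, and DIO (diet-induced obese) mice were switched at 6 weeks of age to one with 60 kcal% fat, which they ate for 9 weeks until the exposures began and then throughout. At 15 weeks of age the SC groups (sham controls) breathed filtered air and the SS groups breathed sidestream smoke, both by nose-only inhalation for 5 h on each of 8 exposure days within 2 weeks. Hearts were taken on the day after the last exposure. The growth protocol also mentions an LPS exposure study, while the titles, treatments and exposure protocol name only filtered air and cigarette smoke, and the groups follow these. There were 8 RW-SC, 7 RW-SS, 8 DIO-SC and 8 DIO-SS arrays, and the other 14 arrays of the study held mice given mainstream smoke (8 RW-MS and 6 DIO-MS). The title of the study asks about impaired transcriptional responses to cigarette smoke in obese mice, which is the question that the interaction addresses.

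Sidestream smoke is the smoke given off by the burning tip of a cigarette, and mainstream smoke is the smoke drawn through it. Smoke carries polycyclic hydrocarbons that bind the aryl hydrocarbon receptor (AhR), oxidants that engage NRF2, and carbon monoxide, and restraint in an exposure tube can raise glucocorticoids. The heart draws most of its energy from fatty acids, a high-fat diet raises its use of them further, and its own circadian clock sets the daily rhythm of many metabolic genes. A diet by smoke interaction arises in several ways. Smoke can change a gene in one diet and not in the other, in opposite directions, or in the same direction by different amounts. The diet can also shift the level in air, and smoke can then remove that shift.

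Values were the deposited log2 expression values, 1 log2 unit being a doubling of signal, and each gene was represented by its brightest probe set. The interaction is the change with smoke in DIO mice (DIO-SS minus DIO-SC) minus the change in RW mice (RW-SS minus RW-SC). It is positive where smoke raised a gene more, or lowered it less, in DIO than in RW mice. Each estimate is given in log2 units ± its standard error (SE), and a gene passed the test at an adjusted p under 0.05 in limma, with Benjamini-Hochberg adjustment over the 9295 genes tested. Per the labels, mice of 1 group are biological replicates, and no batch is named.

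The 12 cardiomyocyte markers, among them Myh6, Tnnt2 and Ttn, lay between 11.74 and 14.52 at their lowest over the 31 arrays, and the mean of each exceeded that of at least 97.3% of the tested genes. Several arrays stood apart in markers of other cells. The mean of the red cell markers, centred on the average of all arrays, reached 0.74 on RW-SS replicate 2 and was higher still on RW-SS replicate 4, against 0.07 to 0.34 on the other RW-SS arrays, -0.33 to -0.10 in RW-SC, -0.35 to -0.04 in DIO-SC and -0.33 to 0.17 in DIO-SS. On RW-SS replicate 7 the 3′ probe set of Gapdh exceeded its 5′ probe set by 0.94, against 0.40 or less on the other arrays of the 4 groups, a difference that grows when RNA is less intact; its mean of the MHC class II markers was 1.27, against 0.88 or less on the others. T and B cell markers were highest on RW-SC replicate 1 (1.13) and DIO-SC replicate 2 (0.86), and at most 0.26 on the others. Lung markers reached 1.14 on RW-SC replicate 7 and between 0.69 and 0.83 on 3 further arrays, 1 each of RW-SC, DIO-SC and DIO-SS. Fat cell markers spanned -1.24 to 1.69, with medians of 0.21 in RW-SC, 0.60 in RW-SS, -0.88 in DIO-SC and -0.45 in DIO-SS. The part of these markers in the results was not tested beyond the covariates named. The red cell mean did not overlap between RW-SS and RW-SC, so that covariate is confounded with smoke in RW mice.

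The interaction passed the test for 2641 genes, 28.4% of those tested. It was positive for 1700 (18.3%) and negative for 941 (10.1%). Most of these differences were small. The interaction was at least 1.5-fold for 69 genes, 25 of them positive and 44 negative. Over all 9295 genes the median interaction was 0.06. Sidestream smoke itself changed 2288 genes (24.6%) in RW mice, of which 1083 rose and 1205 fell, and 2960 genes (31.8%) in DIO mice, of which 2140 rose and 820 fell. The count in RW mice was 632 with the red cell markers as a covariate and 1291 without RW-SS 2, 4 and 7. After a further quantile normalization 1378 rose and 888 fell in RW mice, and 1303 rose and 912 fell in DIO mice. DIO hearts differed from RW hearts for 1882 genes (20.2%) in air, 643 higher (6.92%) and 1239 lower (13.3%), and for 3030 (32.6%) under sidestream smoke, 1832 higher (19.7%) and 1198 lower (12.9%). These splits became 773 and 901 in air and 1142 and 1442 under smoke after that normalization.

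Among the 2641 genes, 833 changed with smoke in RW mice and did not pass in DIO mice, 1056 changed in DIO mice and did not pass in RW mice, and 330 changed in both with opposite signs. Another 51 changed in both with the same sign but by unequal amounts, and 371 passed in neither diet alone. Over the 1700 positive interactions the median change was -0.11 in RW and 0.13 in DIO mice, which pools 766 genes past in DIO mice only, 551 past in RW mice only, 132 past in both with opposite signs, 40 past in both with the same sign and 211 past in neither. Over the 941 negative ones the medians were 0.18 in RW and -0.17 in DIO mice. The RW and DIO comparisons share no arrays. Of the 2288 genes that changed in RW mice, 1232 (53.8%) moved in the same direction in DIO mice, against 4401 of all 9295 genes (47.3%), and 557 passed in that direction while 330 passed in the opposite one.

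**Figure D1:**
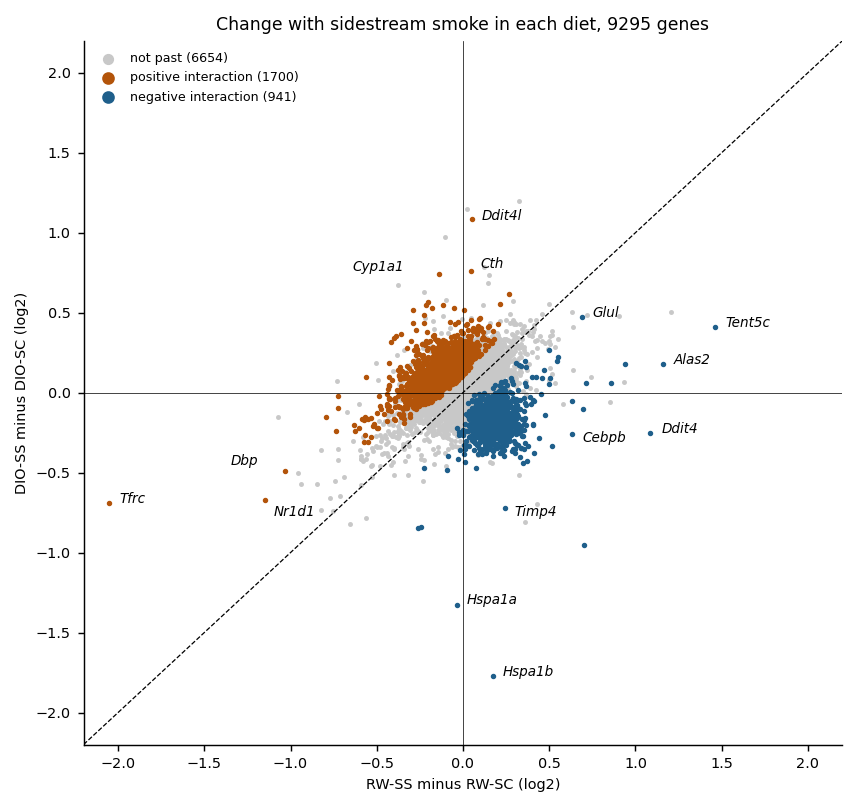
Each point is 1 of the 9295 genes, placed by its log2 change with sidestream smoke in RW mice (horizontal) and in DIO mice (vertical); the dashed line marks equal changes. The 1700 positive interactions (orange) lie above the line and the 941 negative ones (blue) below it, most of them near the origin, while Hspa1b, Tfrc and Ddit4 lie far out.

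The sign of the interaction depended on how bright a gene was. In the dimmest eighth of the genes (mean levels of 4.90 to 5.60) the median interaction was -0.13, and 43 genes passed with a positive and 313 with a negative sign. In the sixth eighth (8.03 to 8.77) the median was 0.12, with 362 positive and 25 negative calls. Smoke moved the median of the dimmest eighth by 0.07 in RW mice and by -0.07 in DIO mice. After a further quantile normalization of the table, 1587 genes passed (17.1%), 623 positive (6.7%) and 964 negative (10.4%), and 1339 of them were among the 2641. Centring each array along expression level gave 1628 (17.5%), 688 positive (7.4%) and 940 negative (10.1%). The balance of signs over all genes, 64.4% positive with the deposited values, 39.3% after the further quantile normalization and 42.3% after centring, was therefore not settled. With the lowest 50% of genes left out it was 84.9%. The genes named below with a positive or negative sign kept that sign after both scalings unless another value is given. A kept sign was not always a kept call. Of the 125 named genes, 19 kept the sign but lost the call after the quantile normalization, and 21 after centring. The number was 41 with the red cell covariate and 16 with the mean of all probe sets. Not every such loss is given below.

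**Figure D2:**
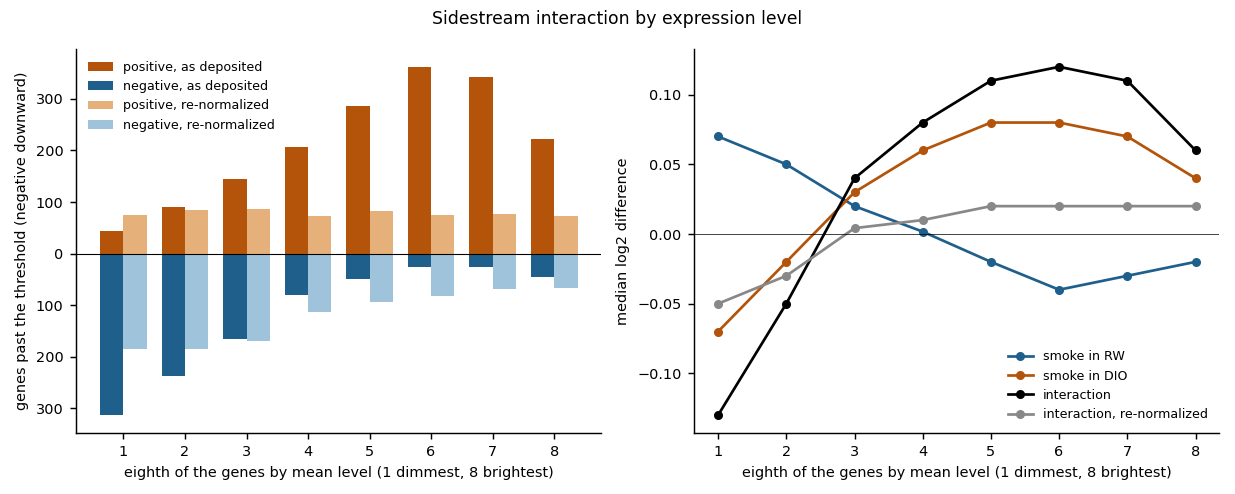
Left, the number of genes past the threshold in each eighth of the 9295 genes by mean level, positive interactions upward and negative ones downward, with the deposited values and after a further quantile normalization. Right, the median log2 change with smoke in each diet and the median interaction; the interaction runs from -0.13 in the dimmest eighth to 0.12 in the sixth, and from -0.05 to 0.02 after re-normalization.

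The heat shock proteins gave the largest interaction. Hspa1b and Hspa1a encode the inducible HSP70 chaperones, which refold damaged proteins and are scarce in unstressed cells. Hspa1b measured 7.08 to 7.43 (median 7.31) in RW-SC and 7.16 to 7.91 (median 7.37) in RW-SS, 8.59 to 10.81 (median 9.36) in DIO-SC and 7.27 to 8.06 (median 7.81) in DIO-SS. Every DIO-SC mouse lay above every mouse of the other 3 groups. DIO hearts breathing air thus exceeded RW hearts by 2.26 ± 0.24 (limma adjusted p = 2.44e-09), and smoke lowered Hspa1b by 1.77 ± 0.24 in DIO mice (adjusted p = 9.61e-07) while the change in RW mice was 0.17 ± 0.25 (adjusted p = 0.658). The interaction was -1.95 ± 0.35, a 3.85-fold difference (adjusted p = 0.000179), and its other 2 probe sets gave -1.79 and -1.65. Hspa1a followed with an interaction of -1.29 ± 0.31 (adjusted p = 0.00269), from group means of 6.14 in RW-SC, 6.10 in RW-SS, 7.96 in DIO-SC and 6.63 in DIO-SS. The genes are near-identical copies, so probe sets of one can bind transcripts of the other, and the pair should be read as one signal.

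The promoters of both genes are shown because the copies moved together. They are the 250 bases before the annotated start in RefSeq (build GRCm38.p6, minus strand), at chr17:34972157-34972406 for Hspa1a and chr17:34959239-34959488 for Hspa1b. Capitals mark GAANNTTC, the pair of inverted units found in elements that bind heat shock factor.
Hspa1a: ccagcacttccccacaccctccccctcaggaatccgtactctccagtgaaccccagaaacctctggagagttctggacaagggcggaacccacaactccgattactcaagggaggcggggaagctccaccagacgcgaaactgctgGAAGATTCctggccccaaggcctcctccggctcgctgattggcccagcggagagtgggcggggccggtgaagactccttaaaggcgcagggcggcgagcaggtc
Hspa1b: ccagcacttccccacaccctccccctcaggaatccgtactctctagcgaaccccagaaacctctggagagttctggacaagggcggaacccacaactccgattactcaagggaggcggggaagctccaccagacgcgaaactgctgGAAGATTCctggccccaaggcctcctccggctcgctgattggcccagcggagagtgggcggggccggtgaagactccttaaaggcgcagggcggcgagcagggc
The stretches were identical at 247 of 250 positions, and the differences, counted from 1 at the 5′ end with the base of Hspa1a first, were C44T, T47C and T249G. GAANNTTC occurred once in each, starting 104 bases before the start of the gene. On either strand it was present in 6.69% of the 32851 stretches of the same length in the table. It does not overlap with a GCGTG, the other motif shown here, which neither stretch holds.

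Of the 26 tested heat shock chaperones, 2 had a positive and 4 a negative interaction (Hspa1a, Hspa1b, Bag3 and Hspb7). The shares of all genes were 18.3% and 10.1%, and the list median was -0.05. After the further quantile normalization the counts were 0 and 7. In air, 14 of the 26 were higher in DIO than in RW hearts and 0 lower (6.92% and 13.3% of all genes). The median difference was 0.14. Under smoke 11 of the 26 fell in DIO mice and 0 rose (8.82% and 23% of all genes). In RW mice 7 fell and 1 rose (13% and 11.7% of all genes). Bag3, a co-chaperone of HSP70 in muscle, rose by 0.19 ± 0.05 in RW mice (limma adjusted p = 0.00366), and its change in DIO mice was -0.08 ± 0.05 (adjusted p = 0.205); its interaction was -0.27 ± 0.07.

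Among genes that glucocorticoids are known to induce, every interaction that passed was negative. Of 28 tested, 13 rose and 0 fell with smoke in RW mice (11.7% and 13% of all genes), while 6 rose and 6 fell in DIO mice (23% and 8.82%). The interaction was negative for 11 and positive for 0 (10.1% and 18.3% of all genes), with a median of -0.21. The counts were the same after the further quantile normalization. Those were Cebpb, Ddit4, Fkbp5, Tsc22d3, Zbtb16, Sgk1, Hif3a, Errfi1, Map3k6, Nfkbia and Glul. For Nfkbia the other probe sets gave -0.03, -0.07 and -0.13. In air, 11 of the 28 were higher and 3 lower in DIO than in RW hearts (6.92% and 13.3% of all genes). With the red cell markers as a covariate 5 of the 28 passed, all negative. With that covariate 630 of all 9295 genes were positive and 462 negative.

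Cebpb, a transcription factor of stress and metabolic responses, had the smallest adjusted p of these genes. It ranged from 9.30 to 9.74 (median 9.45) in RW-SC, 9.75 to 10.33 (median 10.12) in RW-SS, 9.67 to 10.01 (median 9.83) in DIO-SC and 9.43 to 9.87 (median 9.57) in DIO-SS. The RW groups did not overlap, and 7 of 8 DIO-SS mice lay below the DIO-SC mean. Cebpb rose by 0.63 ± 0.07 in RW mice (limma adjusted p = 1.03e-08) and fell by 0.26 ± 0.07 in DIO mice (adjusted p = 0.00333), and the interaction was -0.89 ± 0.10 (adjusted p = 1.07e-07). Ddit4, which encodes the mTORC1 inhibitor REDD1, measured 7.68 to 8.26 (median 7.96) in RW-SC, 8.12 to 9.60 (median 9.13) in RW-SS, 7.83 to 9.18 (median 8.48) in DIO-SC and 7.98 to 8.80 (median 8.16) in DIO-SS. All 7 RW-SS mice lay above the RW-SC mean, though the groups overlapped. It rose by 1.09 ± 0.18 in RW mice, changed by -0.25 ± 0.17 in DIO mice (adjusted p = 0.276), and had an interaction of -1.34 ± 0.25 (adjusted p = 0.000281).

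Tsc22d3, which encodes the anti-inflammatory protein GILZ, rose by 0.48 ± 0.08 in RW mice and changed by -0.14 ± 0.08 in DIO mice, with an interaction of -0.62 ± 0.11 (limma adjusted p = 0.000176). Its group means were 9.58, 10.06, 9.95 and 9.82 in RW-SC, RW-SS, DIO-SC and DIO-SS. Fkbp5, a co-chaperone of the glucocorticoid receptor, had an interaction of -0.68 ± 0.20 (adjusted p = 0.0094), with changes of 0.34 ± 0.14 in RW and -0.35 ± 0.14 in DIO mice, and -0.44 with an adjusted p of 0.161 once the red cell covariate was included. Glul, glutamine synthetase, rose in both diets, by 0.69 ± 0.05 in RW and 0.47 ± 0.05 in DIO mice, and its interaction of -0.22 ± 0.08 (adjusted p = 0.0286) was lost without any 1 of 4 arrays (RW-SC 5, RW-SC 7, RW-SS 4 or RW-SS 7). Pdk4, the kinase that shuts off pyruvate dehydrogenase and that glucocorticoids and fatty acids induce, rose by 0.74 ± 0.19 in RW mice from a mean of 9.90, while DIO hearts were at 11.75 in air and 11.86 under smoke; its interaction of -0.64 ± 0.26 missed the threshold (adjusted p = 0.059).

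**Figure D3:**
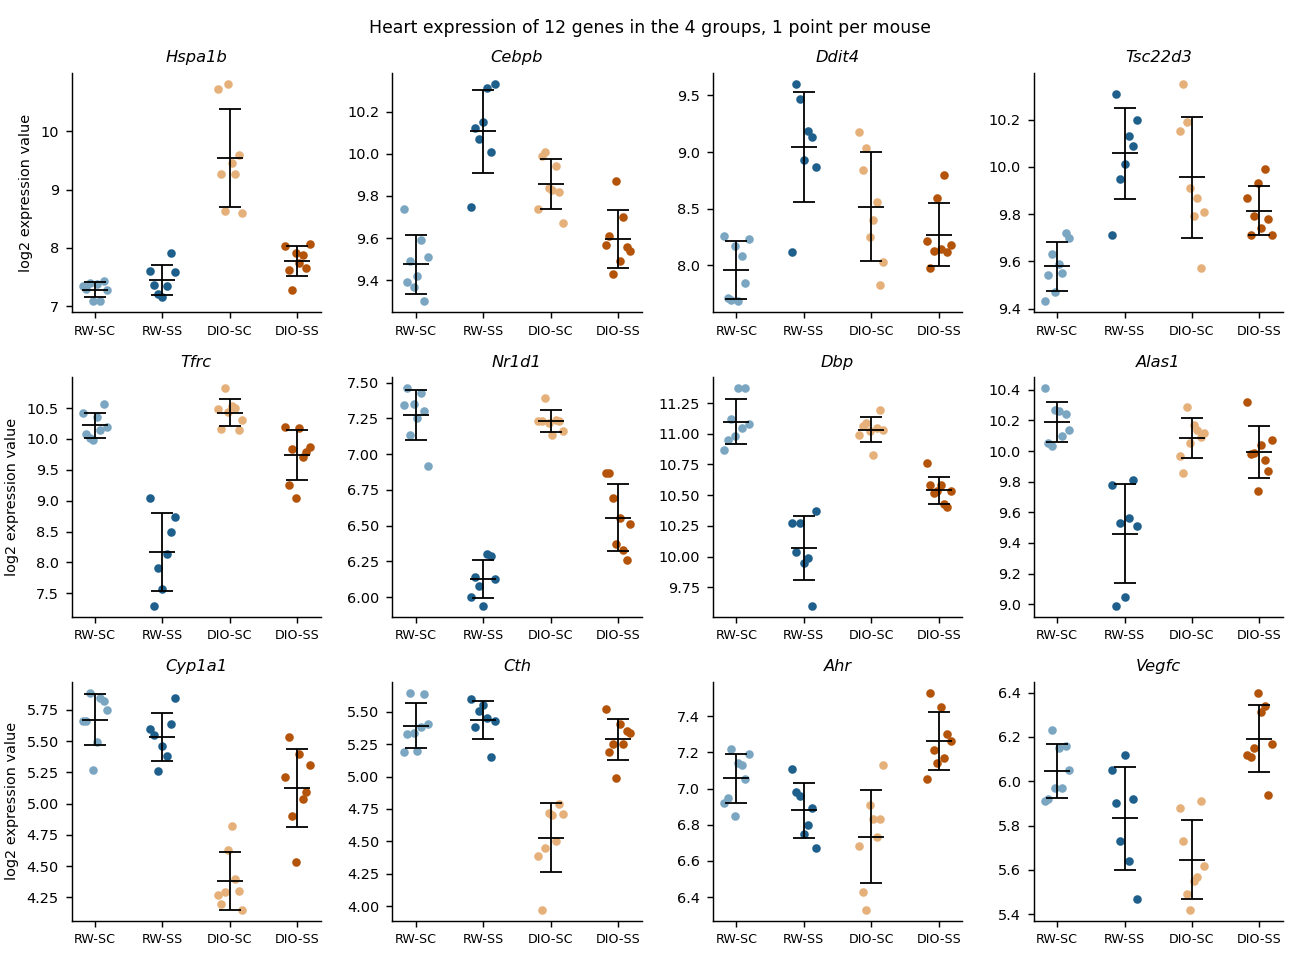
Log2 expression values of 12 genes in the 4 groups, 1 point per mouse, with bars at the mean ± SD (n = 8, 7, 8 and 8). The DIO-SC mice lie apart from all others for Hspa1b (higher) and Cth (lower) and have the lowest mean for Cyp1a1, the RW-SS mice have the lowest means for Tfrc and Alas1, and Cebpb rises with smoke in RW mice and falls in DIO mice.

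Among 29 tested genes of iron handling and heme synthesis, 7 had a positive and 3 a negative interaction, against 18.3% and 10.1% of all genes. The counts were 3 and 5 after the further quantile normalization. The transferrin receptor Tfrc, which brings iron into cells, measured 9.99 to 10.56 (median 10.16) in RW-SC and 7.30 to 9.05 (median 8.14) in RW-SS. In DIO mice it measured 10.15 to 10.82 (median 10.46) in air and 9.04 to 10.19 (median 9.81) under smoke. The RW groups lay well apart, the DIO groups overlapped, and in both diets every smoke-exposed mouse lay below the mean in air. Tfrc fell by 2.05 ± 0.19 in RW mice (limma adjusted p = 2.3e-10) and by 0.69 ± 0.19 in DIO mice (adjusted p = 0.00423), which left an interaction of 1.36 ± 0.27, or 2.57-fold (adjusted p = 0.000424). The other 2 Tfrc probe sets, whose means were no higher than 5.92 in the 4 groups, gave -0.12 and 0.20. With the red cell covariate the interaction was 0.90 (adjusted p = 0.0275).

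Alas1, the first and rate-limiting enzyme of heme synthesis outside red cells, fell by 0.73 ± 0.09 in RW mice and changed by -0.09 ± 0.09 in DIO mice (adjusted p = 0.443). Its interaction was 0.63 ± 0.13 (limma adjusted p = 0.000663), and the RW-SS mice (8.99 to 9.81) did not overlap with the RW-SC mice (10.03 to 10.41). Hmox1, which breaks heme down and is a standard NRF2 target, rose in RW mice from 6.58 ± 0.14 (SD, n = 8) to 7.21 ± 0.44 (SD, n = 7), and stood at 6.72 and 6.67 in the DIO groups, with an interaction of -0.68 ± 0.15 (limma adjusted p = 0.00123). With the red cell covariate Hmox1 was at -0.46 (adjusted p = 0.0516). Tfr2, a second transferrin receptor best known from liver and erythroid cells, was dim (means of 5.92 to 6.25) and had an interaction of -0.56 ± 0.10 (adjusted p = 0.000295).

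Transcripts of red cells themselves rose with smoke in RW mice. Of the 5 red cell markers tested, of 12 listed and 7 on the array, 4 rose in RW mice and 0 changed in DIO mice, and 3 had a negative interaction (Alas2, Bpgm and Sptb). Of all genes, 11.7% rose in RW mice, 31.8% changed in DIO mice and 10.1% had a negative interaction. In bulk hearts more cells of a type and more RNA per cell cannot be told apart. Alas2, the red cell form of the heme enzyme, measured 8.23 to 10.18 (median 8.50) in RW-SS against 7.41 to 7.80 (median 7.72) in RW-SC, 7.09 to 8.19 in DIO-SC and 7.38 to 8.35 in DIO-SS. Its interaction was -0.99 ± 0.32 (limma adjusted p = 0.0204), -0.56 (adjusted p = 0.123) without RW-SS replicates 2 and 4, and 0.12 with the red cell covariate, a list that contains Alas2. Tent5c, which stabilises messenger RNAs in differentiating blood cells, had an interaction of -1.05 ± 0.36 (adjusted p = 0.0242) that was lost without RW-SS 2 or without RW-SS 4 and came to -0.58 (adjusted p = 0.151) without both. With those 2 arrays left out, 2273 genes passed the interaction test and 2112 of the 2641 were among them. With the red cell list as a covariate 1092 passed (630 positive and 462 negative), and 1065 of the 2641 were among them. The part of red cells in the other results was not tested beyond these values.

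Among the aryl hydrocarbon receptor genes, 3 of 9 had a positive and 1 a negative interaction (Arnt), against 18.3% and 10.1% of all genes. The list median was 0.23. Cyp1a1, a cytochrome P450 and the best known AhR target, measured 5.27 to 5.89 (median 5.70) in RW-SC, 5.26 to 5.85 (median 5.55) in RW-SS, 4.15 to 4.82 (median 4.30) in DIO-SC and 4.53 to 5.53 (median 5.15) in DIO-SS. The DIO-SC mice lay below every RW-SC mouse. Diet thus lowered Cyp1a1 in air by 1.29 ± 0.12 (limma adjusted p = 9.96e-11). Smoke raised it by 0.74 ± 0.12 in DIO mice (adjusted p = 1.2e-05), while the change in RW mice was -0.14 ± 0.12 (adjusted p = 0.432). The interaction was 0.88 ± 0.17 (adjusted p = 0.000377). The DIO-SC mean of 4.38 was under the level of 4.90 below which genes were left out as dim. The receptor Ahr itself had an interaction of 0.71 ± 0.12 (adjusted p = 0.000115), with a rise of 0.53 ± 0.08 in DIO mice, and Tiparp, an AhR target that represses the receptor, one of 0.36 ± 0.08 (adjusted p = 0.00194). The other Ahr probe set, with group means of 4.74 to 4.93, gave -0.11.

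The promoter of Cyp1a1 is shown because Cyp1a1 is the best known target of the receptor. The 250 bases before its start (RefSeq, build GRCm38.p6, plus strand) lie at chr9:57697363-57697612, and capitals mark GCGTG, the core of the site that the AhR and its partner bind.
Cyp1a1: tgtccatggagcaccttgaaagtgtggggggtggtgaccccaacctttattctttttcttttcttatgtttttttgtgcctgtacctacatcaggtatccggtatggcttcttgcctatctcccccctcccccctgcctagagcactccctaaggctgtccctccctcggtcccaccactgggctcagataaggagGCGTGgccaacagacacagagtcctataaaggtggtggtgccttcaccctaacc
GCGTG occurred once, 54 bases before the start, and on either strand it was present in 28.2% of the 32851 stretches of that length.

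Cth, which makes cysteine and hydrogen sulfide, was, like Cyp1a1, lowest in DIO-SC. It measured 5.19 to 5.65 (median 5.36) in RW-SC, 5.15 to 5.60 (median 5.45) in RW-SS, 3.97 to 4.79 (median 4.60) in DIO-SC and 4.99 to 5.52 (median 5.30) in DIO-SS. The DIO-SC mice lay below all others. The interaction was 0.71 ± 0.15 (limma adjusted p = 0.000816), from a rise of 0.76 ± 0.10 in DIO mice and a change of 0.05 ± 0.11 in RW mice. Every DIO-SC value of Cth lay under the level of 4.90 below which genes were left out as dim. Of 19 tested targets of the stress factor ATF4, Cth included, 5 were positive and 5 negative, against 18.3% and 10.1% of all genes. The counts were 3 and 5 after the further quantile normalization.

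The antioxidant genes controlled by NRF2 gave 6 positive and 4 negative interactions among 32 tested, near the shares of all genes, and 1 and 6 after the further quantile normalization. With smoke 11 of them rose in DIO mice and 7 in RW mice, against 23% and 11.7% of all genes. Nqo1, a classic NRF2 target, rose in both diets, by 0.33 ± 0.07 in RW and 0.25 ± 0.07 in DIO mice, and its interaction of -0.09 ± 0.10 did not pass (adjusted p = 0.549). Gsta4, which detoxifies lipid peroxides, rose by 0.26 ± 0.04 in DIO mice and changed by -0.02 ± 0.05 in RW mice (interaction 0.28 ± 0.06, limma adjusted p = 0.00156). The metallothioneins Mt1 and Mt2, which bind zinc and other metals, had interactions of -0.13 ± 0.09 and -0.20 ± 0.19 (adjusted p = 0.299 and 0.438).

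The circadian clock gave 4 positive and 0 negative interactions among 15 tested genes, against 18.3% and 10.1% of all genes, with a median of 0.16. These were Dbp, Nr1d1, Clock and Nr1d2. After the further quantile normalization, after centring along level and with the red cell covariate the counts were 3 and 0, without Nr1d2, and the median was 0.07 after either scaling. Nr1d1 encodes the clock repressor REV-ERBα. It measured 6.92 to 7.46 (median 7.32) in RW-SC, 5.94 to 6.30 (median 6.13) in RW-SS, 7.13 to 7.39 (median 7.23) in DIO-SC and 6.26 to 6.87 (median 6.53) in DIO-SS. Smoke and air did not overlap in either diet, and the groups in air overlapped. Nr1d1 fell by 1.15 ± 0.08 in RW mice and by 0.67 ± 0.08 in DIO mice (interaction 0.47 ± 0.11, limma adjusted p = 0.00212). Dbp, a clock output factor, fell by 1.03 ± 0.08 and 0.49 ± 0.08 (interaction 0.54 ± 0.11, adjusted p = 0.000697), and its other probe set gave 0.60. Clock, which encodes the core activator, fell by 0.30 ± 0.05 in RW mice, while the DIO means were 7.31 and 7.30. The other Clock probe set did not show that fall. Its means were 6.97 in RW-SC, 6.95 in RW-SS, 6.88 in DIO-SC and 7.02 in DIO-SS, an interaction of 0.17. Bhlhe40, another clock repressor, fell by 0.77 ± 0.07 and 0.66 ± 0.07, and its interaction of 0.11 ± 0.10 did not pass (adjusted p = 0.383). Neither did those of Per2 (-0.15 ± 0.13, adjusted p = 0.388) and Arntl (-0.08 ± 0.18, adjusted p = 0.769, and 0.0045 after centring along level). The hour at which each heart was taken is not given in the labels.

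In the vasculature, 7 of 24 angiogenesis ligands and receptors had a positive and 0 a negative interaction, against 18.3% and 10.1% of all genes. The list median was 0.13. After the further quantile normalization the counts were 3 and 2. With the red cell covariate they were 2 and 0, with a median of 0.06. That covariate left 630 positive and 462 negative calls among all 9295 genes. Vegfc, a growth factor for lymphatic and blood vessels, measured 5.91 to 6.23 in RW-SC, 5.47 to 6.12 in RW-SS, 5.42 to 5.91 in DIO-SC and 5.94 to 6.40 in DIO-SS, with medians of 6.01, 5.90, 5.59 and 6.16. The DIO groups did not overlap. Vegfc rose by 0.55 ± 0.09 in DIO mice and changed by -0.21 ± 0.09 in RW mice (adjusted p = 0.0816), and the interaction was 0.76 ± 0.13 (limma adjusted p = 0.000102). Kdr, the main VEGF receptor, fell by 0.22 ± 0.06 in RW mice and rose by 0.20 ± 0.06 in DIO mice (interaction 0.42 ± 0.08, adjusted p = 0.000422). Aplnr, the apelin receptor, had an interaction of 0.71 ± 0.18 (adjusted p = 0.00432), which missed the threshold with the red cell covariate. Of 14 endothelial markers tested, 4 had a positive interaction and 0 a negative one, against 18.3% and 10.1% of all genes. The counts were 1 and 1 after the further quantile normalization, and 1 and 0 with the red cell covariate. Kdr and Tek are on both lists. The mean of the endothelial markers lay between 0.05 and 0.16 in DIO-SS, against -0.06 to 0.07 in DIO-SC, -0.17 to 0.07 in RW-SS and -0.09 to 0.07 in RW-SC. Their part in the result was not tested.

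In the extracellular matrix, 5 of 27 genes for fibrillar collagens and collagen processing were positive and 0 negative, with a median of 0.20. The positive count was near the 18.3% of all genes, and 1 was positive after the further quantile normalization or with the red cell covariate. In RW mice 9 of the 27 fell with smoke and 2 rose (13% and 11.7% of all genes). In DIO mice 2 fell and 1 rose (8.82% and 23% of all genes). Col8a1, a short-chain collagen of vessel walls, fell by 0.38 ± 0.08 in RW mice and changed by 0.14 ± 0.08 in DIO mice (interaction 0.52 ± 0.11, limma adjusted p = 0.000927). Col4a2, a chain of basement membrane collagen, fell by 0.47 ± 0.07 in RW mice, with no overlap between the groups, and changed by -0.10 ± 0.06 in DIO mice; its interaction of 0.37 ± 0.09 (adjusted p = 0.00283) missed the threshold with the red cell covariate. Serpinh1, the collagen chaperone, had an interaction of 0.34 ± 0.18 (adjusted p = 0.158) and -0.18 with that covariate. Fibroblast markers gave 4 positive and 0 negative interactions of 15, with Col1a1 and Lum also on the collagen list, and 0 and 0 after either scaling. Smooth muscle and pericyte markers gave 3 and 0 of 12, and 2 and 0 after either scaling. Among all genes, 18.3% were positive and 10.1% negative with the deposited values. With the red cell covariate both marker lists gave 0 and 0, and all 9295 genes gave 630 and 462. The fibroblast mean ranged from -0.32 to 0.17 in RW-SS, -0.14 to 0.11 in RW-SC, -0.19 to 0.38 in DIO-SC and -0.06 to 0.37 in DIO-SS, and its part in the collagen values was not tested.

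Among 14 metalloproteinases and their inhibitors, 3 had a positive and 2 a negative interaction (Timp4 and Mmp9), against 18.3% and 10.1% of all genes. The counts were the same after either scaling. Adamts5, which cleaves proteoglycans, rose by 0.53 ± 0.08 in DIO mice and changed by -0.05 ± 0.08 in RW mice, with an interaction of 0.58 ± 0.11 (limma adjusted p = 0.000439). Timp4, the metalloproteinase inhibitor most typical of heart, measured 8.15 to 8.54 in DIO-SC and 7.19 to 7.89 in DIO-SS, with no overlap, and fell there by 0.72 ± 0.14. Its values in RW-SS were spread over 7.59 to 9.02, around the 7.82 to 8.21 of RW-SC, and the interaction was -0.96 ± 0.20 (adjusted p = 0.00074).

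Of 33 fatty acid oxidation genes, 5 had a positive and 1 a negative interaction, against 18.3% and 10.1% of all genes, and 2 and 2 after the further quantile normalization. In air 22 of the 33 were higher and 2 lower in DIO than in RW hearts, against 6.92% and 13.3% of all genes. Plin5, which coats lipid droplets in oxidative tissue, fell by 0.43 ± 0.07 in RW mice from 9.28 to 8.85 and stood at 9.81 and 9.73 in the DIO groups (interaction 0.35 ± 0.10, limma adjusted p = 0.00645). Acss2, which activates acetate for lipid synthesis, fell by 0.56 ± 0.10 in RW mice and changed by 0.10 ± 0.10 in DIO mice (interaction 0.66 ± 0.14, adjusted p = 0.000728). The PPARα targets Angptl4, Ucp3 and Acot1 were higher in DIO than in RW hearts in air, by 1.10 ± 0.26, 0.86 ± 0.14 and 1.20 ± 0.12. Their interactions of 0.66 ± 0.37, 0.16 ± 0.20 and 0.13 ± 0.17 did not pass (adjusted p = 0.169, 0.569 and 0.565). Slc2a1, the glucose transporter GLUT1, was 0.75 ± 0.07 lower in DIO hearts in air and rose by 0.34 ± 0.07 and 0.40 ± 0.07 with smoke in RW and DIO mice, with an interaction of 0.06 ± 0.09 (adjusted p = 0.678) that was -0.04 after either scaling.

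Few genes of oxidative metabolism passed. Of 19 tricarboxylic acid cycle genes 0 passed the interaction test in limma, with 2 at an unadjusted p under 0.05, and of 63 genes of the respiratory chain and ATP synthase 1 was positive and 2 negative, against 18.3% and 10.1% of all genes. In the insulin and growth factor signalling list 7 of 25 were positive and 1 negative, against 18.3% and 10.1% of all genes. The counts were 2 and 1 after the further quantile normalization. Gsk3b, a kinase that insulin signalling inhibits, fell by 0.38 ± 0.05 in RW mice, with no overlap between the groups, and changed by -0.08 ± 0.05 in DIO mice (interaction 0.30 ± 0.07, limma adjusted p = 0.00159). Inflammation genes gave 0 positive and 2 negative interactions of 23 (Nfkbia and Il6ra), and interferon genes 0 and 2 of 26 (Mx2 and Stat2). The shares of all genes were 18.3% and 10.1%, and the negative counts were near theirs. With the red cell covariate neither list had a call, while all 9295 genes had 630 positive and 462 negative ones. The other Il6ra probe set gave 0.22, and the other Nfkbia probe sets gave -0.03, -0.07 and -0.13. Immediate early genes, which answer acute stimulation, gave 3 positive and 6 negative interactions of 26, against 18.3% and 10.1% of all genes. The counts were 2 and 9 after the further quantile normalization. In air 6 of these were higher in DIO than in RW hearts and 0 lower (6.92% and 13.3% of all genes). With smoke 9 fell and 1 rose in DIO mice (8.82% and 23% of all genes). In RW mice 4 fell and 2 rose (13% and 11.7% of all genes).

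**Figure D4:**
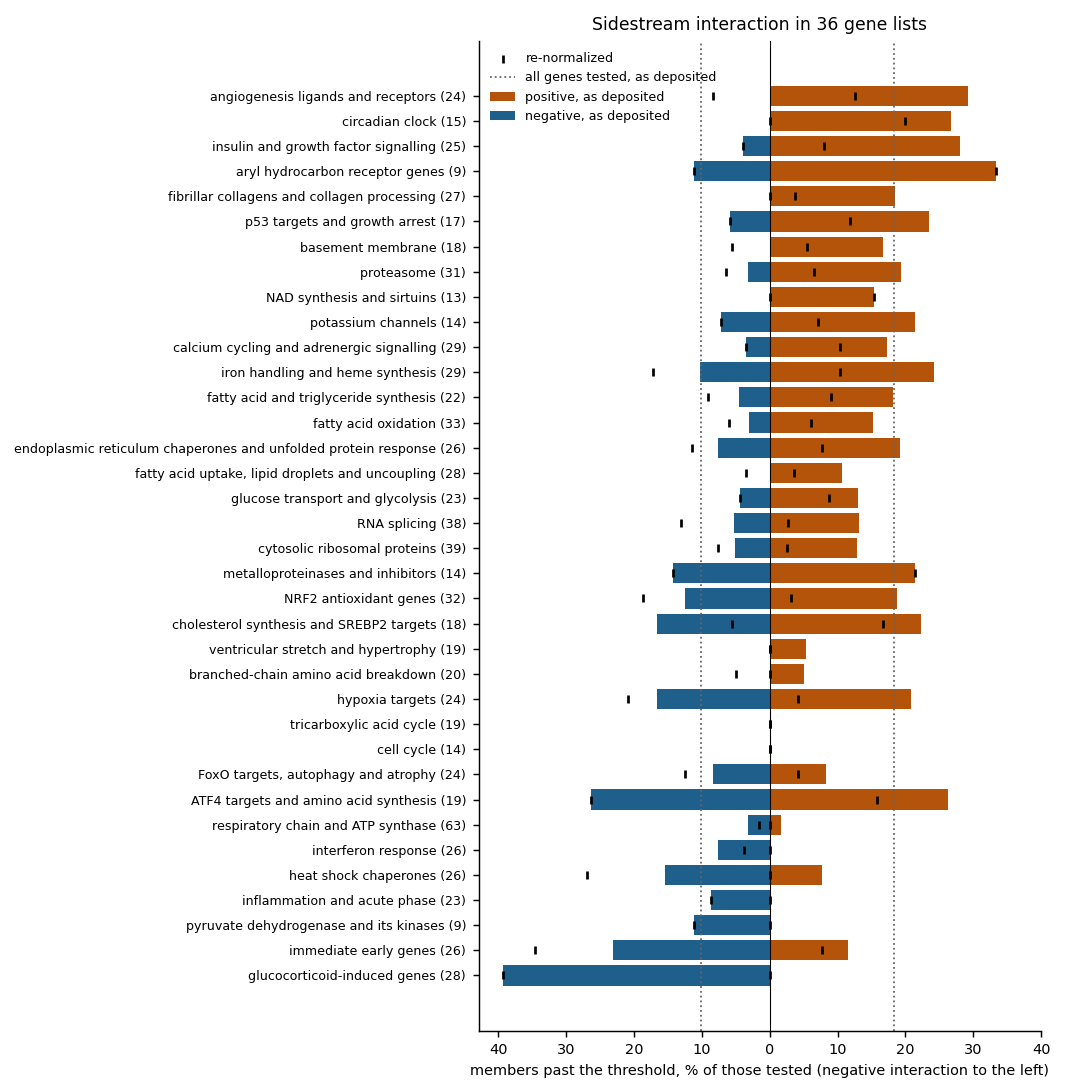
For each of 36 gene lists, the percentage of its tested members (number in brackets) past the threshold, positive interactions to the right and negative ones to the left; ticks give the same after a further quantile normalization, and dotted lines the 18.3% and 10.1% of all genes. Glucocorticoid-induced genes reach furthest to the left with 11 of 28, and aryl hydrocarbon receptor genes furthest to the right with 3 of 9. The angiogenesis list has 7 of 24 to the right, and 3 after re-normalization.

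Of 14 potassium channel genes 3 had a positive and 1 a negative interaction, and of 29 genes of calcium cycling and adrenergic signalling 5 and 1, against 18.3% and 10.1% of all genes. The ventricular stretch and hypertrophy list gave 1 and 0 of 19. Rrad, a small GTPase that restrains the L-type calcium channel, rose by 0.57 ± 0.11 in DIO mice from the lowest of the 4 means, 10.35, to 10.91, and changed by -0.21 ± 0.12 in RW mice from 10.89 (interaction 0.77 ± 0.16, limma adjusted p = 0.000766). Kcna5, a potassium channel of repolarisation, had an interaction of -0.73 ± 0.19 (adjusted p = 0.00388), with changes of 0.44 ± 0.13 in RW and -0.28 ± 0.13 in DIO mice. Its DIO-SC values were 8.03 to 8.18 on replicates 1 to 3 and 7.25 to 7.66 on the others, against 7.15 to 7.72 in DIO-SS. Those replicates were also the highest of DIO-SC for Ddit4, Tsc22d3 and Per2. Kcne1, a potassium channel subunit, fell in both diets, by 0.83 ± 0.14 and 0.73 ± 0.14, and its interaction of 0.09 ± 0.20 did not pass (adjusted p = 0.75). The natriuretic peptide genes, markers of cardiac wall stress, did not pass either: Nppb had an interaction of 0.46 ± 0.23 (adjusted p = 0.125) and Nppa one of 0.08 ± 0.52 (adjusted p = 0.919). Bmp10, an atrial growth factor named after its values were seen, had the second largest interaction, -1.66 (adjusted p = 0.0311). Its groups overlapped throughout, with highest values of 7.71, 7.78 and 8.08 in RW-SC, RW-SS and DIO-SC and 5.41 in DIO-SS, and the call was lost without any 1 of 6 arrays, 3 of RW-SS and 3 of DIO-SC. No other of the 11 atrial markers tested passed.

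The rest of the largest interactions are of mixed kinds. Ddit4l, which encodes another mTORC1 inhibitor related to REDD1, measured 6.37 to 6.88 in DIO-SS, above every mouse of the other groups (4.96 to 6.19), and rose by 1.08 ± 0.15 in DIO mice (interaction 1.03 ± 0.21, limma adjusted p = 0.000687). The other Ddit4l probe set, with group means of 5.29 to 5.91, gave 0.36. Bdnf, a neurotrophin, measured 7.15 to 7.78 in DIO-SS and 6.43 to 7.14 in RW-SS, with no overlap, and had an interaction of 0.81 ± 0.15 (adjusted p = 0.000338). Txnip, which restrains glucose uptake, Sox4, a transcription factor, Evi2a and the smooth muscle phosphatase inhibitor Ppp1r14a had interactions of 0.73, 0.73, 0.74 and 0.72, and that of Ppp1r14a was 0.49 (adjusted p = 0.105) with the red cell covariate. The other Sox4 probe sets gave 0.44, 0.73, 0.27, 0.10 and -0.04. On the negative side Kap, Prss29, Ube2l6, Elf4, Lce1i and Krtap12-1 had interactions of -0.85 to -0.78, and their group means lay between 4.73 and 6.95. The other probe sets of Kap, Elf4 and Krtap12-1, with group means no higher than 4.21, gave -0.21, -0.26 and -0.04. Ube2l6 was at -0.07 (adjusted p = 0.7) with the red cell covariate and lost its call without RW-SS 2, 4 and 7. Prss29 was at -0.35 (adjusted p = 0.129) with that covariate, and its other probe sets gave 0.27 and -0.27. Krtap12-1 and Lce1i encode structural proteins of hair and skin.

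The same interaction with mainstream smoke passed for 21 genes (0.226% of 9295), 14 positive (0.151%) and 7 negative (0.0753%), with a median absolute value of 0.07 against 0.13 for sidestream smoke and a median SE of 0.081 against 0.079. Both interactions use the same RW-SC and DIO-SC mice, so they share whatever set those controls apart, and their values are given side by side. Hspa1b, whose DIO-SC level stood apart, had -1.95 ± 0.35 with sidestream and -1.71 ± 0.36 with mainstream smoke, a difference of -0.23 ± 0.36 (limma adjusted p = 0.708). Cth, low in DIO-SC, had 0.71 ± 0.15 and 0.86 ± 0.15, a difference of -0.15 ± 0.16 (adjusted p = 0.561). Tfrc had 1.36 ± 0.27 and 1.38 ± 0.27, a difference of -0.02 ± 0.28 (adjusted p = 0.981).

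The direct test of sidestream minus mainstream interaction cancels the shared controls. It passed for 784 genes (8.43%), 472 with a positive (5.08%) and 312 with a negative difference (3.36%), of which 642 were among the 2641 (24.3% of those). The split turned with the scaling, to 122 positive and 261 negative after the further quantile normalization and 203 and 277 after centring. Of the RW-MS arrays, 3 had atrial marker means of -2.86, -2.43 and -2.39, against -0.48 to 0.77 in the 4 groups, and with the atrial covariate 1285 genes passed. Timp4 had -0.96 ± 0.20 with sidestream and 0.08 ± 0.21 with mainstream smoke, a difference of -1.04 ± 0.21 (limma adjusted p = 0.00422). Vegfc had 0.76 ± 0.13 and 0.22 ± 0.13, a difference of 0.54 ± 0.13 (adjusted p = 0.0127). Cyp1a1 went the other way, with 0.88 ± 0.17 and 1.63 ± 0.17, a difference of -0.75 ± 0.18 (adjusted p = 0.0101). Cebpb had -0.89 ± 0.10 and -0.61 ± 0.10, and the difference of -0.27 ± 0.10 did not pass (adjusted p = 0.0745). Of the 4 clock genes and 11 glucocorticoid-induced genes with an interaction, Zbtb16, a transcription factor, passed the direct test, with -0.58 ± 0.21 and 0.41 ± 0.21 (adjusted p of the difference = 0.00638). The other 14 did not, among them Nr1d1 (-0.18 ± 0.12, adjusted p = 0.336), Dbp (0.17 ± 0.12, adjusted p = 0.341) and Tsc22d3 (-0.34 ± 0.11, adjusted p = 0.052).

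**Figure D5:**
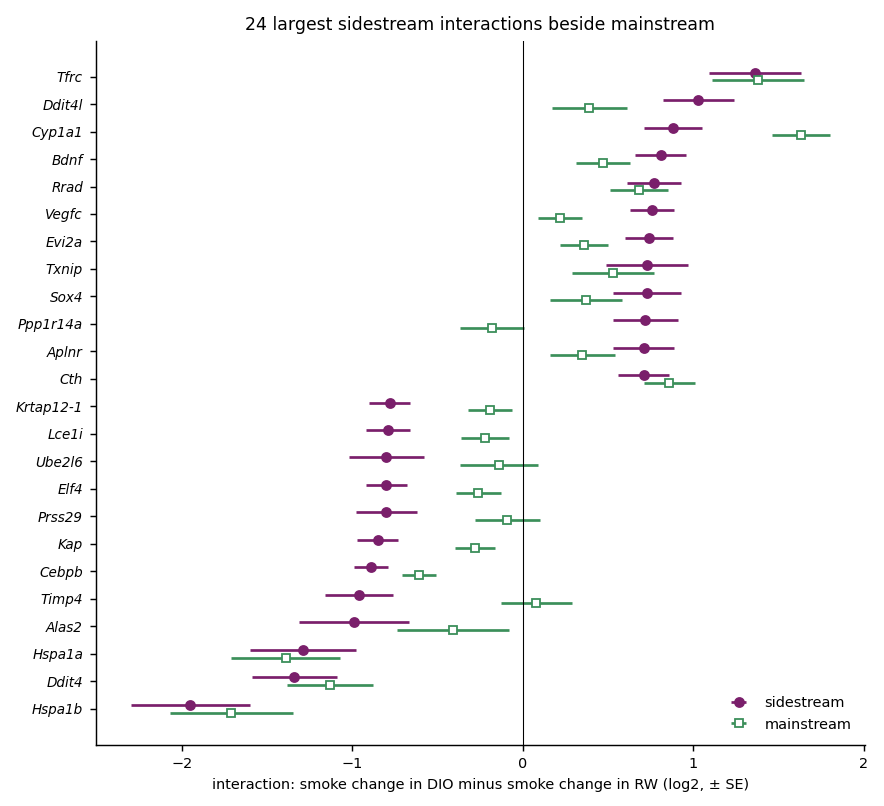
Interaction of diet with sidestream smoke (filled circles) and with mainstream smoke (open squares) for the 12 largest positive and 12 largest negative sidestream interactions named by rule, in log2 units with bars of ± 1 SE; both share their air controls. Hspa1b, Ddit4, Tfrc and Cth have similar values with both smokes, while Timp4 and Ppp1r14a lie near 0 with mainstream smoke.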

How the data were processed

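Hearts of 45 mice were measured on 1-colour expression arrays. The values are the authors' deposited log2 expression values, 1 column per array, made with RMA (background correction, quantile normalization and summarization of probes) per the submitters' processing notes; its version is not given in the sources used here. All 45 columns were used, and 0 columns of per-sample values were left unused. Arrays have no read depth, and their number limits the precision. Array medians ran from 6.20 to 6.24.

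Of 22690 probe sets, 20380 are listed with 1 gene, 691 with several and 1606 are not listed, and only the first were used, which gave 12393 genes. The probe set with the highest mean stood for a gene, and the lowest 25% of genes by mean were left out (means under 4.90), which left 9295. Group means of all 6 groups were fitted in limma 3.58.1 (R 4.3.3) with eBayes, and p-values were adjusted by Benjamini-Hochberg over all genes tested; the threshold was 0.05. The code was tested on simulated data. Tables and figures used Python 3.11.15, pandas 2.3.3 and matplotlib 3.10.9. Promoters were taken from RefSeq; 99 of the 125 named genes had one in the table used.

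Genes were named by rule: the 12 largest interactions of each sign that stayed past the threshold without each 1 of the 31 arrays, up to 3 such members of each gene list by adjusted p, and a fixed panel of 30 genes. The groups compared, the gene lists, the panel and the rule were chosen with earlier results of these data known, and other list members named to account for a count were picked after their values were seen. Alternatives covered the normalization, the dim filter, the probe set rule, array weights, marker covariates, a replicate block and arrays left out.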

Additional observations from a re-analysis of the deposited data

Results flagged for a closer look

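The change with sidestream smoke differed between DIO and RW mice, by limma's interaction term, for 2641 genes, and the interactions with sidestream and mainstream smoke differed for 784. Of the 125 named genes, 109 had an interaction past the threshold, given here in log2 units. The most negative values were Hspa1b -1.95, Ddit4 -1.34, Hspa1a -1.29, Tent5c -1.05, Alas2 -0.99, Timp4 -0.96, Cebpb -0.89, Kap -0.85, Elf4 -0.80 and Ube2l6 -0.80. Then came Prss29 -0.80, Lce1i -0.79, Krtap12-1 -0.78, Kcna5 -0.73, Hmox1 -0.68, Fkbp5 -0.68, Tsc22d3 -0.62, Tfr2 -0.56, Pvalb -0.54 and Gstm3 -0.51. Further negative values were Cd3e -0.45, Hif3a -0.43, Mmp9 -0.41, Pnpla3 -0.40, Mx2 -0.38, Hsd17b7 -0.38, Fosl2 -0.37, Derl3 -0.35, Atp2a1 -0.34 and Il6ra -0.34. Next stood Nr4a3 -0.33, Sptb -0.33, Rpl37 -0.32, Nfkbia -0.31, Pdk1 -0.30, Pfkfb2 -0.30, Luc7l -0.27, Bag3 -0.27, Glul -0.22 and Eif4ebp1 -0.21. Smaller negative values were Ndufb6 -0.19 and Ttn -0.18. The most positive values were Tfrc 1.36, Ddit4l 1.03, Cyp1a1 0.88, Bdnf 0.81, Rrad 0.77, Vegfc 0.76, Evi2a 0.74, Txnip 0.73, Sox4 0.73 and Ppp1r14a 0.72. Below these lay Ahr 0.71, Cth 0.71, Aplnr 0.71, Acss2 0.66, Alas1 0.63, Adamts5 0.58, Rpl14 0.56, Dbp 0.54, Mylk 0.54 and Col8a1 0.52. Further positive values were Mustn1 0.51, Nr1d1 0.47, Kdr 0.42, Sirt3 0.39, Col4a2 0.37, Asph 0.37, Clk4 0.37, Pdia4 0.37, Tiparp 0.36 and Zmat3 0.36. Next in size were Kcnj8 0.36, Pfkp 0.35, Plin5 0.35, Hsd17b4 0.33, Nmnat1 0.32, Ier2 0.31, Ebp 0.31, Pdgfra 0.31, Gsk3b 0.30 and Mylpf 0.30. Smaller positive values were Plk2 0.30, Msmo1 0.30, Clock 0.30, Fcgr3 0.29, Gsta4 0.28, Emcn 0.27, Atf6 0.26, Lama4 0.25, Mtor 0.25 and Ei24 0.25. After them came Pik3ca 0.24, Acot7 0.24, Eci1 0.24, Atg5 0.23, Lpin1 0.21, Psmc3 0.21, Kcnk3 0.21, Abhd5 0.20, Mef2c 0.20 and Pccb 0.19. The smallest positive values included Map1lc3b 0.19, Pdgfrb 0.19, Psmd14 0.19, Hk1 0.18, Tek 0.17, Psmb5 0.16 and Echs1 0.16.

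In 9 of 188 combinations of a gene and a group, over 47 genes, 1 array lay far from the others of its group by Dixon's criterion, which chance flags in about 1 of 20 groups. Hspa1a was high on DIO-SS replicate 1, at 7.23. Prss29 was low on DIO-SS replicate 5, at 4.65. Nr1d1 was high on DIO-SC replicate 3, at 7.39, and Nqo1 low on RW-SC replicate 1, at 7.77. Ucp3 was high on RW-SS replicate 2, at 7.98. Acot1 was high on RW-SC replicate 8, at 7.37, on RW-SS replicate 2, at 7.85, and on DIO-SC replicate 3, at 8.55. Nppa was low on RW-SC replicate 4, at 13.32.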

How the results depend on the processing

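Of 125 named genes, 61 kept their direction and their side of the threshold under all 16 settings and with each of the 31 arrays left out, and 681 of the 2641 interaction calls (324 positive, 357 negative) were kept in every setting. The count of 2641 became 1587 after a further quantile normalization, 1628 with intensity-dependent centring and 1092 with red cell markers as a covariate. With that covariate the count was 632 for smoke in RW mice, 1449 for diet under sidestream smoke, 13 for the mainstream interaction and 359 for sidestream minus mainstream. Leaving out RW-SS 2, 4 and 7 gave 1291 for smoke in RW mice and 34 for the mainstream interaction. Array weights gave 48 for the mainstream interaction and 2023 for sidestream minus mainstream, which was 383 after the quantile normalization, 480 with centring and 1285 with the atrial covariate. The causes were not tested. Centring and the settings without RW-SS 2 and 4, or 2, 4 and 7, were chosen after seeing the data. Leaving out 1 array at a time gave 2251 to 2773 interaction calls, 1951 to 2324 for smoke in RW mice, 2519 to 3201 for smoke in DIO mice, 1571 to 2094 for diet in air, 2615 to 3047 for diet under sidestream smoke, 16 to 32 for the mainstream interaction and 526 to 966 for sidestream minus mainstream.

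Signs turned for 12 named genes in some setting. With the red cell covariate Alas2 was at 0.12, Tent5c at 0.08, Kcne1 at -0.04 and Serpinh1 at -0.18. With the mean of all probe sets Pfkfb2 was at 0.03 and Mtor at -0.05. Without RW-SS 2, 4 and 7 Nqo1 and Mt1 were both at 0.03 and Mt2 at 0.10. Nppa was at -0.02 with the fat covariate and ran from -0.0032 to 0.15 without 1 array. Arntl was at 0.0045 with centring, and Slc2a1 at -0.04 with centring and with the quantile normalization. With the number in the title as a replicate block 2596 genes passed the interaction test, and 2339 with the animal number. Same-numbered arrays did not deviate together (median r of -0.0026 and 0.009 over 45 pairs), so the numbers were not taken as pairs. Dim genes have the least signal over background.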
